A study of Homo sapiens with 12 samples.

Results

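The aminoacyl-tRNA synthetases are the enzymes that load each amino acid onto its tRNA, and 36 human genes for them were followed here, 20 for cytosolic and 16 for mitochondrial enzymes. They were chosen by name: a probe set (the group of probes that reads about 1 exon) counted when its only gene symbol was that of a member, under the older name used here (AARS) or the newer name with a 1 added, and names ending in 2 are the mitochondrial enzymes. For 35 of the 36 a gene value could be formed, 19 cytosolic and 16 mitochondrial, of 16883 genes tested in all. No probe set could be assigned to DARS alone, and DARS was not analysed here. SARS2 shares 4 further probe sets with FBXO17 and VARS2 shares 18 with GTF2H4, and these were not used.

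The RNA came from U2OS cells, a human osteosarcoma line, in which all 4 groups carry a stably expressed, doxycycline-inducible K294A, the catalytically inactive form of the capping enzyme. Cells were either induced with doxycycline (1 ug/ml for 24 h) or not. Cytoplasmic RNA was extracted with trizol and depleted of ribosomal RNA, and each state was hybridised to exon arrays untreated or after treatment in a test tube with Xrn1, an exonuclease that digests RNA with a 5′ monophosphate and spares capped RNA. The 4 groups, uninduced untreated, uninduced Xrn1, induced untreated and induced Xrn1, hold 3 arrays each, and the series asks which RNAs the cytoplasmic capping complex acts on; the labels do not say how many clones the line holds.

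Each synthetase recognises its own amino acid and tRNA, and the enzymes fall into class I and class II by the fold of their catalytic domain. The cytosolic and the mitochondrial sets are both encoded in the nucleus, so both kinds of mRNA pass through the cytoplasm sampled here, and the mitochondrial proteins are imported after translation. Several cytosolic enzymes sit in a multisynthetase complex, GARS and KARS serve both compartments, and many cytosolic synthetase genes are known targets of ATF4, the transcription factor of the amino acid response.

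Promoter sequence was looked at as background on the members, since ATF4 binds an element of the form TGATGNAA (TTNCATCA on the other strand). RefSeq windows of 250 bases before the gene start, build GRCh38.p14, were matched for 30 of the 36 members; AARS2, DARS, LARS, VARS, VARS2 and YARS were not matched. The element was present on either strand in 3 of 16 cytosolic windows and 1 of 14 mitochondrial ones, against 3.14% of all 35116 windows. The 3 cytosolic genes are IARS and GARS, with the 2 most negative changes after Xrn1 in the cytosolic set, and AARS (−1.94). TARS (−2.40), NARS (−2.33) and EPRS (−2.17) lie between GARS and AARS by change and had no match. Xrn1 was applied to extracted RNA in a test tube, and a link between the element and the change under Xrn1 was not tested. The matches are shown with the element in capitals, 5′ to 3′ along the gene, followed by YARS2:
IARS (chr9:92293698-92293730, minus strand, 13 bases before the start): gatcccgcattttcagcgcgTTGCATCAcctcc
GARS (chr7:30594825-30594872, plus strand, 33 bases before the start): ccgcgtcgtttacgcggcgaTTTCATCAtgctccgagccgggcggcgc
AARS (chr16:70289666-70289713, minus strand, 187 bases before the start): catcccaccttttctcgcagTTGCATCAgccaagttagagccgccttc
YARS2 (chr12:32756067-32756114, minus strand, 197 bases before the start): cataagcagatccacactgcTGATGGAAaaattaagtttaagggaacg
A match describes the letters only. HARS and HARS2 lie head to head, and the 84 bases between their starts, shown because both members of a pair share them, hold no such element:
HARS to HARS2 (chr5:140691371-140691454, plus strand): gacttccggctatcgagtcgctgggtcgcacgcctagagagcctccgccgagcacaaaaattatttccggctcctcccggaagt

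All values are log2 levels of a gene, the mean of its kept probe sets. Probes differ between genes, so levels of different genes are compared only coarsely, as ranks, level groups or medians of a set. The 12 arrays have overall medians of 2.09 to 2.25, so a change is relative to the rest of the array and does not measure how much RNA was lost. The arrays measured RNA pooled from many cells, in which fewer cells holding an mRNA and less of it per cell cannot be told apart. As a check of the cell type, each marker gene was placed among all genes tested by its mean array value, a coarse rank since probes differ between genes. The 8 mesenchymal markers had percentiles from 55.1 (RUNX2) to 99.9 (COL1A1), and the 13 measured markers of other cell types from 4.35 (HBB) to 81.0 (CD3E), so both sets overlapped. Epithelial KRT5 (70.3) and EPCAM (51.9), endothelial PECAM1 (66.001) and CDH5 (63.3) and muscle DES (65.6) were in the upper part of the second range, and PTPRC (5.17) and CDH1 (17.2) in its lower part. The limma test estimated a common SD of 0.418 for every gene, and "rose" and "fell" below mean an adjusted p under 0.05 over all 16883 genes.

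A step in the table bears on every result. In the order of the probe set numbers, the offsets between arrays changed at once after probe set 3122285: the first 650745 probe sets have 1 pattern of offsets and the next 749074 another, and a further 6606 and 4974 probe sets at the end return to the first and again to the second. Uninduced untreated replicate 2 had a median of 1.55 over probe sets of the first pattern and 2.63 over those of the second, while uninduced Xrn1 replicate 2 had 2.83 and 1.499. Induced untreated replicate 2 fell from 2.66 to 1.45, induced untreated replicate 1 from 2.52 to 1.86 and uninduced Xrn1 replicate 3 from 2.45 to 1.86. The other 7 arrays moved by no more than 0.24. The cause of the step was not tested. Of the members, 22 lie in the first stretch (11 cytosolic, 11 mitochondrial) and 13 in the second: AARS, CARS, FARSA, IARS, KARS, MARS, NARS and WARS, with CARS2, EARS2, NARS2, SARS2 and YARS2. Results are therefore given both on the deposited values and after the quantiles of the 12 arrays were equalised separately for the probe sets of each pattern ("equalised"), a step chosen after seeing the data. Equalising raised the lowest correlation between uninduced Xrn1 arrays across genes from 0.71 to 0.91, and that between uninduced untreated arrays from 0.84 to 0.95. It moved less between induced untreated arrays, from 0.835 to 0.877, and between induced Xrn1 arrays, from 0.942 to 0.946.

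**Figure D1:**
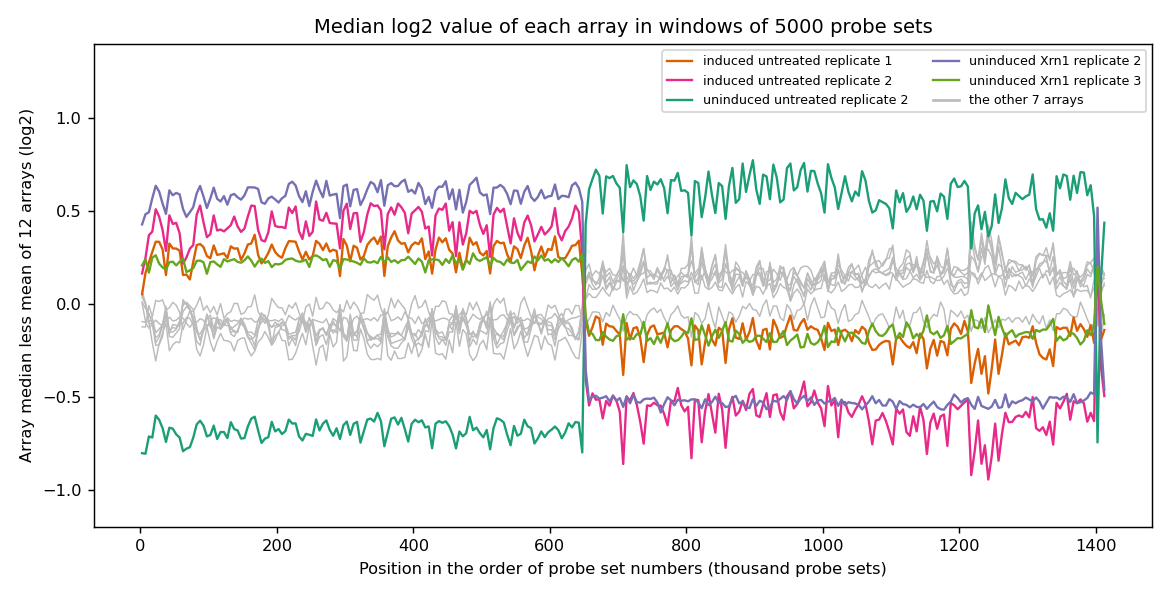
Median log2 value of each of the 12 arrays, less the mean of the 12, in windows of 5000 probe sets (y, log2) along the order of probe set numbers (x). The 5 coloured arrays change place after 650745 probe sets, and uninduced untreated replicate 2 goes from the lowest to the highest.

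Most cytosolic synthetase mRNAs, and fewer mitochondrial ones, were lower after Xrn1. Averaged over both induction states, 17 of 19 cytosolic enzymes fell (median change −1.55) and 6 of 16 mitochondrial ones (median −0.44), with no member rising (limma). Over all genes tested 29.8% fell and 14.2% rose, with a median of 0.05. On deposited values the mitochondrial count lies near the share of all genes that fell, here and in each induction state. That count is no result about the mitochondrial set. On equalised values the counts were 17 of 19 and 10 of 16, with medians of −1.53 and −0.42, where 36.3% of all genes fell and 30.5% rose. With cyclic loess between the arrays 15 cytosolic enzymes fell and 2 rose, and 8 mitochondrial enzymes fell and 1 rose. Within the first stretch, whose members share 1 pattern of offsets, the deposited medians were −1.55 for cytosolic and −0.33 for mitochondrial enzymes, and within the second −1.53 and −0.56. The distance between both sets was thus present in each stretch.

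The 2 sets differed in level, and the part of level in this result was not tested. All genes were put into 4 level groups of equal size by mean level, group 4 being the highest. Of the cytosolic enzymes 15 of 19 lie in level group 4, where 51.3% of all genes fell, and the other 4 in level group 3, where 32.8% fell. Of the mitochondrial enzymes 4 lie in level group 4, 6 in group 3, 4 in group 2 and 2 in group 1. Within level group 4, 13 of 15 cytosolic enzymes fell (median −1.73) and 2 of 4 mitochondrial ones (median −0.74), against a median of −0.61 for all genes there. In level group 3, 4 of 4 cytosolic and 2 of 6 mitochondrial enzymes fell. In level groups 2 and 1, 2 of 4 and 0 of 2 mitochondrial enzymes fell, against 24.1% and 10.9% of all genes. With level groups formed on equalised values, 2 of 4, 2 of 6, 4 of 4 and 2 of 2 mitochondrial enzymes fell from group 4 to 1. Of all genes 55.6%, 39.2%, 31.9% and 18.4% fell there. Of the cytosolic enzymes 13 of 15 and 4 of 4 fell in groups 4 and 3.

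**Figure D2:**
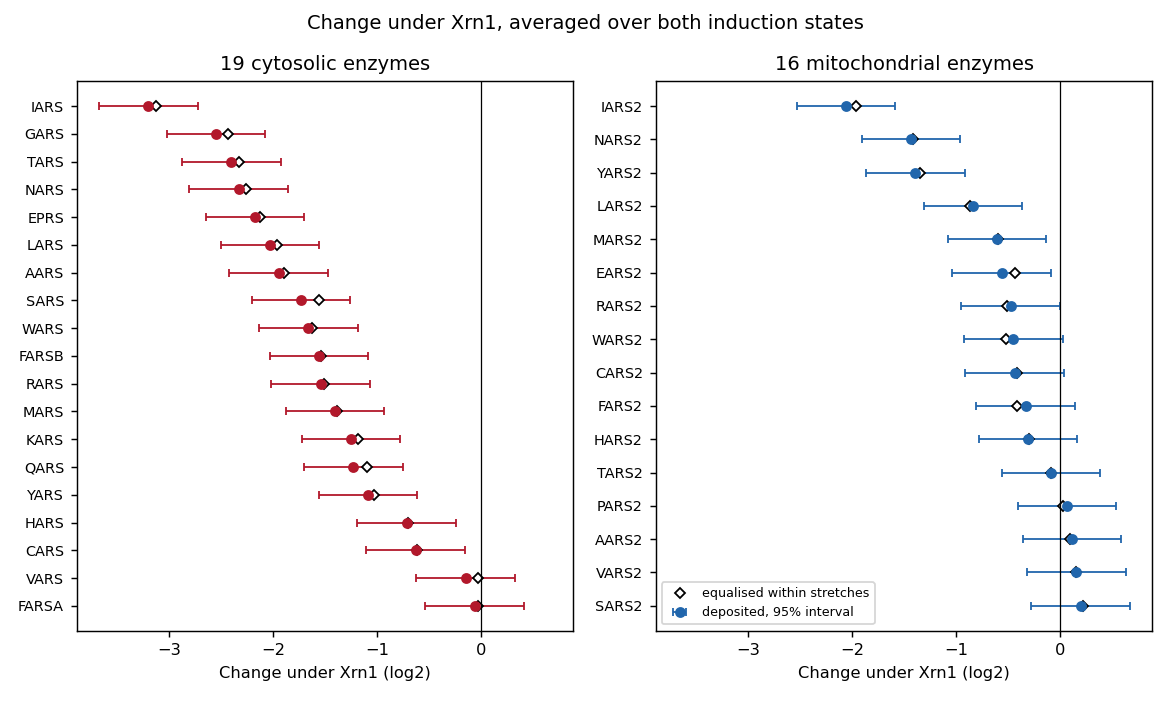
Change under Xrn1 averaged over both induction states (x, log2) of 19 cytosolic (left) and 16 mitochondrial enzymes (right), filled points from deposited values with 95% intervals, open diamonds after equalising. IARS, at −3.20, is lowest on the left and IARS2, at −2.06, lowest on the right.

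IARS, which charges isoleucine and belongs to the multisynthetase complex, changed most. Its level without Xrn1 was 7.46, 7.66 and 7.32 in uninduced replicates 1 to 3 and 6.42, 7.31 and 6.92 in induced ones. With Xrn1 it was 3.71, 3.38 and 4.07 in uninduced and 4.48, 3.84 and 4.43 in induced replicates. All 6 Xrn1 arrays lay far below all 6 untreated ones. The averaged change was −3.20 ± 0.24 (SE, 12 arrays, limma adjusted p = 6.31e-37), or 9.17-fold. On equalised values it was −3.12 (limma adjusted p = 4.71e-12). Of its 41 kept probe sets, 39 were lower by more than 1.

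GARS, for glycine, followed with −2.55 ± 0.24 (limma adjusted p = 5.92e-24), and −2.43 on equalised values (limma adjusted p = 1.81e-10). It read 7.68, 6.49 and 7.37 in uninduced untreated and 6.46, 7.82 and 7.15 in induced untreated replicates. With Xrn1 it read 4.27, 4.87 and 4.63 in uninduced and 5.13, 4.10 and 4.69 in induced replicates. The 2 groups without Xrn1 stayed above both with it, and the low uninduced untreated replicate 2 (6.49) became 7.08 after equalising.

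TARS, for threonine, fell by 2.40 on the log2 scale (limma adjusted p = 2.12e-21), with −2.33 on equalised values (limma adjusted p = 8.54e-11). Its uninduced untreated levels of 6.70, 5.67 and 6.51 and induced untreated levels of 5.67, 6.96 and 6.10 met Xrn1 levels of 3.65, 4.11 and 3.94 and of 4.24, 3.50 and 3.78. The Xrn1 arrays were again all lower. NARS, for asparagine, was at 6.24, 5.82 and 6.16 and at 5.43, 6.44 and 5.89 without Xrn1, and at 3.49, 3.75 and 3.92 and at 3.73, 3.29 and 3.83 with it, in uninduced and induced replicates in turn. It changed by −2.33 (limma adjusted p = 3.12e-20) and by −2.26 on equalised values (limma adjusted p = 6.69e-10). All 18 of its kept probe sets were below 0.

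Of the multisynthetase complex, 7 of 7 measured enzymes fell (EPRS, IARS, KARS, LARS, MARS, QARS and RARS). They did so in each induction state and in the average, on deposited and on equalised values. The shares of all genes that fell were 31.8%, 17.8% and 29.8% in uninduced cells, induced cells and the average on deposited values, and 37.3%, 25.5% and 36.3% on equalised ones. All 7 lie in level group 4, where 56.2%, 33.3% and 51.3% of all genes fell on deposited values. EPRS, which carries both the glutamate and the proline enzyme in 1 protein, changed by −2.17, LARS by −2.03, RARS by −1.54, MARS by −1.40, KARS by −1.25 and QARS by −1.23. Outside the complex 10 of 12 cytosolic enzymes fell in the average: AARS (−1.94), SARS (−1.73), WARS (−1.66), FARSB (−1.55), YARS (−1.08), HARS (−0.71) and CARS (−0.63) beside GARS, TARS and NARS. The complex had a median of −1.54 and the others −1.61 on the log2 scale. By catalytic class, 9 of 10 cytosolic class I and 8 of 9 class II enzymes fell in the average, against the same 29.8% of all genes. EPRS, whose chain also holds a class II part, was counted in class I only.

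VARS and FARSA were the cytosolic exceptions, and the interval of each includes 0. VARS, for valine, changed by −0.15 (95% interval −0.62 to 0.33; equalised −0.02). FARSA, the alpha subunit of the phenylalanine enzyme, changed by −0.06 (−0.53 to 0.41; equalised −0.02), while FARSB, its beta subunit, fell by 1.55 on the log2 scale. Both subunits are needed for 1 enzyme, and the difference between them was not tested. In all, 15 of 19 cytosolic enzymes had all 6 Xrn1 arrays below all 6 untreated ones; CARS, FARSA, HARS and VARS did not. Of all genes tested 11.5% had this pattern. After equalising it was 16 of 19, against 23.6% of all genes, and of the mitochondrial enzymes 2 of 16 had it on deposited and 3 of 16 on equalised values.

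Among mitochondrial enzymes IARS2, for isoleucine, had the most negative change, −2.06 ± 0.24 (SE, limma adjusted p = 5.28e-16). On equalised values IARS2 changed by −1.96 (limma adjusted p = 6.12e-09). Its levels were 6.49, 4.88 and 6.16 in uninduced untreated and 5.08, 6.50 and 5.70 in induced untreated replicates, against 3.65, 4.08 and 3.91 and 4.09, 3.21 and 3.54 with Xrn1. No Xrn1 array reached an untreated one. YARS2, for tyrosine, stood at 5.18, 4.67 and 5.12 and at 3.82, 5.11 and 4.27 without Xrn1, and at 3.16, 2.78 and 3.38 and at 3.52, 3.40 and 3.61 with it. Its change of −1.39 (limma adjusted p = 8.55e-08; equalised −1.34) also came without overlap.

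NARS2, for asparagine, was at 4.33, 4.80 and 4.79 in uninduced untreated and 3.19, 4.05 and 4.26 in induced untreated replicates. With Xrn1 it was at 2.55, 2.24 and 2.51 and at 3.44, 2.87 and 3.21. It changed by −1.43 (limma adjusted p = 3.04e-08; equalised −1.41), but induced untreated replicate 1 lay below 2 of the induced Xrn1 arrays. LARS2, for leucine, changed by −0.83 (limma adjusted p = 2.24e-03; equalised −0.86), with untreated levels of 4.28, 2.78 and 4.17 and of 2.89, 4.07 and 4.17 and Xrn1 levels of 2.59, 3.16 and 2.94 and of 3.04, 2.79 and 2.84. Its groups overlapped through the low uninduced untreated replicate 2 and induced untreated replicate 1.

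MARS2 (−0.61) and EARS2 (−0.56), for methionine and glutamate, were the other 2 mitochondrial enzymes that fell. RARS2 (−0.47), WARS2 (−0.45), CARS2 (−0.43) and FARS2 (−0.33) passed the test only after equalising, at −0.51, −0.51, −0.41 and −0.41. HARS2 (−0.30), TARS2 (−0.08), PARS2 (0.07), AARS2 (0.12), VARS2 (0.16) and SARS2 (0.20) passed on neither set of values. Over single kept probe sets, 66.1% of the 496 of cytosolic enzymes and 27.4% of the 307 of mitochondrial ones were lower by more than 1, against 26.8% of all 258175. Both sets differ in level, a dim probe set has less room to fall by more than 1, and no share at like level was taken.

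The pairs that charge the same amino acid in both compartments showed the same order in most cases. In 12 of 13 pairs the cytosolic change was the more negative, on deposited and on equalised values, and the median distance was −1.07 and −0.998. The cytosolic enzyme also had the higher mean array value in every pair, a coarse rank since probes differ. Over all genes the median change was 0.22, 0.17, −0.03 and −0.61 from level group 1 to 4. The part of level in the order within pairs was not tested. TARS and TARS2 were farthest apart, at −2.40 and −0.08, then AARS and AARS2 (−1.94 and 0.12) and SARS and SARS2 (−1.73 and 0.20). WARS and WARS2 stood at −1.66 and −0.45, LARS and LARS2 at −2.03 and −0.83, and RARS and RARS2 at −1.54 and −0.47. IARS and IARS2 were both strongly lower (−3.20 and −2.06), as were NARS and NARS2 (−2.33 and −1.43). MARS and MARS2 were at −1.40 and −0.61. HARS and HARS2, with their shared stretch of promoter, were at −0.71 and −0.30, CARS and CARS2 at −0.63 and −0.43, and VARS and VARS2 at −0.15 and 0.16. YARS (−1.08) and YARS2 (−1.39) were the exception, and the distance within single pairs was not tested.

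**Figure D3:**
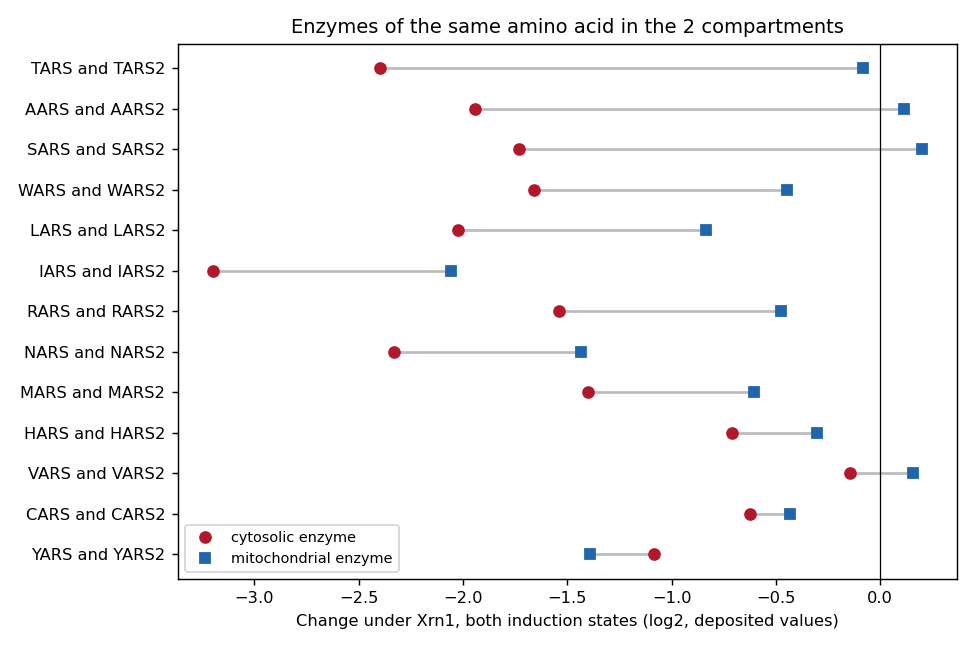
Change under Xrn1 averaged over both induction states (x, log2, deposited values) of 13 pairs of enzymes (rows), circles for the cytosolic and squares for the mitochondrial enzyme. The circle lies to the left of the square in every pair but YARS and YARS2.

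The 2 sets can also be set side by side on each array. The median level of the cytosolic set less that of the mitochondrial set was 1.71 ± 0.19 (SD, n = 3) in uninduced untreated, 1.65 ± 0.22 in induced untreated, 0.54 ± 0.13 in uninduced Xrn1 and 0.87 ± 0.17 in induced Xrn1 arrays. The 6 untreated arrays lay between 1.48 and 1.90 and the 6 Xrn1 arrays between 0.39 and 1.05, with no overlap. After equalising the 4 means were 1.59, 1.63, 0.72 and 0.74. The cytosolic median itself was 5.39 ± 0.41 and 5.35 ± 0.57 without Xrn1 and 3.79 ± 0.12 and 4.04 ± 0.25 with it, in uninduced and induced cells in turn. The mitochondrial median went from 3.68 ± 0.53 and 3.70 ± 0.39 to 3.25 ± 0.15 and 3.18 ± 0.09, where single arrays overlapped.

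**Figure D4:**
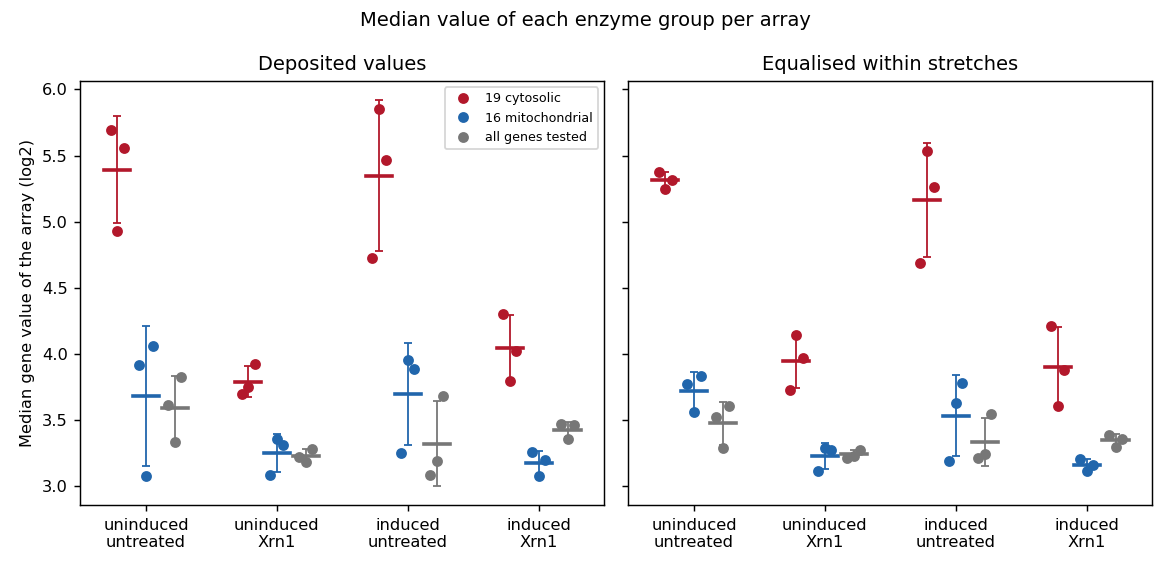
Median gene value (y, log2) of 19 cytosolic enzymes, 16 mitochondrial enzymes and all genes tested on each of the 12 arrays by group (x), deposited (left) and equalised (right); points are arrays, bars the mean and SD of 3. The cytosolic points of the Xrn1 groups, at most 4.30, lie below those of the untreated groups, at least 4.73, on deposited values.

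In uninduced cells alone, 16 of 19 cytosolic (median −1.72) and 6 of 16 mitochondrial enzymes (median −0.32) fell under Xrn1 and none rose, against 31.8% of all genes lower and 7.24% higher (median −0.27; limma). After equalising 17 and 10 fell, with medians of −1.68 and −0.52, against 37.3% of all genes lower and 16.3% higher. With cyclic loess the mitochondrial calls were 5 lower and 3 higher, and the cytosolic 10 lower and 1 higher. IARS (−3.76), GARS (−2.59), AARS (−2.41) and TARS (−2.39) fell most among the cytosolic enzymes. AARS, for alanine, went from 6.14, 6.42 and 6.31 to 3.96, 3.48 and 4.22, and its equalised change was −1.95. Of the mitochondrial enzymes NARS2 (−2.20), IARS2 (−1.97), YARS2 (−1.88) and EARS2 (−1.07) led. EARS2 read 3.36, 3.72 and 4.03 untreated and 2.71, 2.47 and 2.74 with Xrn1, without overlap, but its change was only −0.50 after equalising. LARS2 and CARS2 were the other 2 that fell. HARS (−0.75) passed the test only after equalising, at −1.02.

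In induced cells, 15 of 19 cytosolic enzymes fell (median −1.48), and 4 of 16 mitochondrial enzymes fell and 1 rose (median −0.60); of all genes 17.8% fell and 21.6% rose (median 0.10; limma). After equalising 15 cytosolic (median −1.39) and 4 mitochondrial enzymes fell (median −0.36) and none rose, against 25.5% of all genes lower and 23.8% higher. IARS (−2.63), GARS (−2.50), TARS (−2.40) and NARS (−2.30) led the cytosolic list, and IARS2 (−2.14), YARS2 (−0.89), RARS2 (−0.82) and LARS2 (−0.82) the mitochondrial one. RARS2, for arginine, read 3.31, 4.10 and 3.64 untreated and 3.06, 2.83 and 2.70 with Xrn1, and its equalised change of −0.52 still passed. LARS2 did not pass after equalising (−0.52), whereas NARS2 then did (−1.10).

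The count of 5 mitochondrial calls in induced cells, in either direction, depended on single arrays. It was 1 without any of the 3 induced Xrn1 arrays or without induced untreated replicate 2, 2 without uninduced Xrn1 replicate 3 and 3 without induced untreated replicate 3, and it was 7 without uninduced untreated replicate 2. The enzyme that rose was SARS2, for serine, by 0.85 (limma adjusted p = 0.036). It read 2.91, 2.83 and 4.05 in induced untreated and 4.08, 3.94 and 4.31 in induced Xrn1 replicates, so the groups overlapped through untreated replicate 3. After equalising the change was 0.38, which did not pass (limma adjusted p = 0.080).

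Whether Xrn1 acted differently in induced and uninduced cells was tested as the difference of both changes. On deposited values 4 of 35 members had a higher change in induced cells and none a lower one, where 20.6% of all genes were higher and 1.23% lower (limma), so the count is no result about the members as a set. They were NARS2 (1.54), WARS (1.36), CARS (1.35) and SARS2 (1.29). All 4 lie in the second stretch of the table, as do 98.0% of the 3479 genes called higher. In that stretch 13 of 13 members had a difference above 0, and in the first 8 of 22. After equalising no member passed, and the 4 differences became 0.61, 0.43, 0.42 and 0.33 (limma adjusted p from 0.34 to 0.54). Of all genes 0.0888% were then higher and 0.00592% lower. Under an unadjusted p of 0.05 (limma) were 4 of 35 members. No such count over all genes was taken, so this is no result about the members.

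CARS, for cysteine, read 3.94, 4.38 and 4.37 in uninduced untreated and 3.17, 2.41 and 3.21 in uninduced Xrn1 replicates, but 2.95, 3.41 and 3.99 in induced untreated and 3.55, 3.45 and 3.50 in induced Xrn1 replicates. The lowest untreated values belong to induced replicates 1 and 2 and the lowest Xrn1 value to uninduced replicate 2, the arrays that stand low in this stretch. Equalised, CARS was at 3.77, 3.94 and 4.00, then 3.01, 2.97 and 3.25, then 3.41, 3.77 and 3.75, and then 3.33, 3.19 and 3.20 in the same order.

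WARS, for tryptophan, gave 4.89, 4.73 and 4.99 and then 2.85, 2.01 and 2.73 in uninduced cells, and 3.34, 4.45 and 4.48 and then 3.12, 2.99 and 3.23 in induced cells. Equalising moved its uninduced Xrn1 replicate 2 from 2.01 to 2.61 and its induced untreated replicate 1 from 3.34 to 3.93. SARS2 gave 3.79, 3.96 and 4.12 and then 3.87, 3.03 and 3.63 in uninduced cells, where its replicate 2 of 3.03 became 3.68. On deposited values the count of 4 also became 9 without induced untreated replicate 3, 2 when induced untreated replicate 2 was left out, or replicate 2 of the uninduced untreated or replicate 3 of the uninduced Xrn1 group. It was 1 without induced Xrn1 replicate 2. It was 0 without induced untreated replicate 1, induced Xrn1 replicate 1 or 3, uninduced Xrn1 replicate 2, or replicate 3 of the uninduced untreated arrays.

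**Figure D5:**
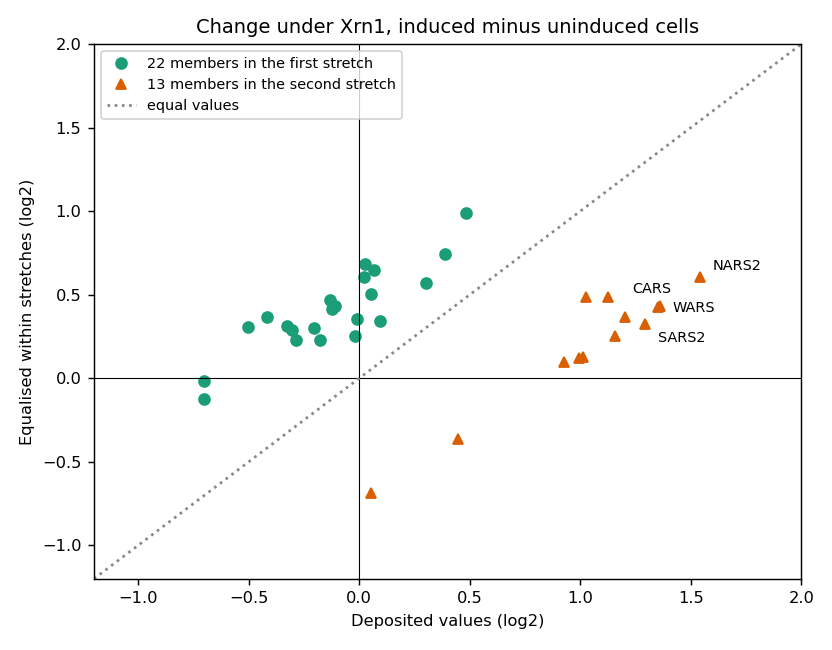
Change under Xrn1 in induced less uninduced cells (log2) of 35 members, deposited (x) against equalised (y); circles lie in the first stretch of the table, triangles in the second. The 4 named members passed the test on deposited values, at 1.29 to 1.54, and lie at 0.33 to 0.61 after equalising.

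No member passed the test for induction of K294A. Without Xrn1, 0 of 35 passed (limma; 5 at an unadjusted p under 0.05), with changes from −0.81 to 0.35, and of all genes 0.0296% fell and 0.0118% rose. With Xrn1, 0 of 35 passed (1 unadjusted), with changes from −0.46 to 0.73, and of all genes 0.00592% fell and 0.0533% rose. Of all 16883 genes, 5201 were under an unadjusted p of 0.05 without Xrn1 and 1534 with it (limma). The unadjusted counts of members were thus no excess over all genes. Here too the sign went with the stretch: without Xrn1, 0 of 13 members in the second stretch were above 0 and 13 of 22 in the first. After equalising 0 of 35 passed in either comparison, with ranges of −0.43 to 0.22 and −0.47 to 0.82 and 1 unadjusted each. No unadjusted count over all genes was taken after equalising. Of all genes 0% fell and 0% rose without Xrn1 and 0.00592% fell and 0.0711% rose with it. Without induced untreated replicate 3, 7 members passed as lower on deposited values in the comparison without Xrn1. The standard error of each change was 0.34 on deposited values and 0.17 to 0.28 on equalised ones. The most negative change without Xrn1, −0.81, had a limma adjusted p of 0.119, so changes of that size were not detectable here on deposited values.

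Of 13 genes that work with the synthetases, 7 fell under Xrn1 in the average and none rose (median −0.61), against 29.8% of all genes lower and 14.2% higher. XPOT, which exports tRNA from the nucleus, changed by −2.78, and EEF1A1, the elongation factor that carries charged tRNA to the cytosolic ribosome, by −1.63. PTRH2, a peptidyl-tRNA hydrolase, changed by −1.23 and MTFMT, which formylates the mitochondrial initiator tRNA, by −1.19. TUFM, the mitochondrial counterpart of EEF1A1, changed by −0.83, and GATC and QRSL1, subunits of the mitochondrial glutamyl-tRNA amidotransferase, by −0.78 and −0.61. GATB, another subunit of the amidotransferase, did not pass on deposited (−0.24) or on equalised values (−0.28). The 3 scaffold proteins of the multisynthetase complex did not pass on deposited values, with AIMP2 at −0.47, AIMP1 at −0.28 and EEF1E1 at −0.18. The 7 measured enzymes of the complex fell, but they and AIMP2 lie in level group 4, where 51.3% of all genes fell. AIMP1 and EEF1E1 lie in level group 1, where 10.9% fell, and the part of level was not tested. After equalising 9 of the 13 fell, where 36.3% of all genes fell and 30.5% rose, with AIMP2 (−0.40) and AIMP1 (−0.35) among them.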

How the data were processed

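The authors deposited a log2 value for each probe set of 12 exon arrays. RMA and oligo are named, per the submitters' processing notes, without a version. Probe sets with 1 gene symbol in GEO's platform annotation (357604 of 1411399; 15322 carry several, 1038473 none) and a mean above 2.04, the median of all, were averaged per gene, with at least 3 per gene. Of 19560 symbols, 16472 were current and 2966 were updated through RefSeq synonyms. Gene values were fitted with limma 3.58.1 in R 4.3.3 (lmFit, eBayes) over 4 group means with 6 contrasts and Benjamini-Hochberg adjustment over 16883 genes; the fit was tested on simulated data.

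Stretches of the table were found from medians in windows of 100 probe sets and a cumulative sum, and arrays were equalised within them by quantile normalisation; this assumes alike distributions after Xrn1. Values in every sample are given for up to 4 cytosolic and 4 mitochondrial members in each direction of a contrast. These are the members with the largest change among those called. Partner genes are named where called in the average, and the 3 scaffold proteins and GATB were added after their values were seen. The members and lists were chosen with earlier results of these data known. The labels call the samples biological replicates without naming separate cultures, so p-values rest only on the spread between these samples, which may be technical. On deposited values limma took 1 common SD for all genes as known (prior degrees of freedom infinite). A small p there does not measure a gene's own spread. With each gene's own spread, 47 of 69 member calls over all contrasts held. Replicates are named by order within a group, since 1 title repeats a replicate number. The alternatives tried concern the summary, filter, scaling, prior, samples, replicate block, fold and single arrays.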

Additional observations from a re-analysis of the deposited data

Results flagged for a closer look

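The change under Xrn1 differed between induced and uninduced cells in 4 members on the deposited values, by a test of the difference itself. That is 4 of 35, while 20.6% of all genes were called higher in the same test and 36.8% of those in the second stretch, so the count is no result about the members as a set. The difference was 1.35 for CARS, 1.54 for NARS2, 1.29 for SARS2 and 1.36 for WARS (log2; limma adjusted p from 0.025 to 0.042). All 4 lie in the second stretch of the table, and with arrays equalised within stretches the differences were 0.42, 0.61, 0.33 and 0.43, none past the threshold.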

How the results depend on the processing

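Averaged over both induction states, cytosolic calls under Xrn1 were 16 to 17 and mitochondrial calls 4 to 9 when single arrays were left out; in uninduced cells 16 to 17 and 4 to 7, in induced cells 10 to 16 and 1 to 7. The median change of the cytosolic less the mitochondrial set ranged over these from −1.21 to −1.003, −1.49 to −1.28 and −1.07 to −0.79. For induction the calls were 0 to 7 without Xrn1 and 0 to 0 with it, with differences of −0.28 to −0.04 and 0.0474 to 0.259, and for the difference between both states 0 to 9, with 0.18 to 0.36. Mitochondrial calls in induced cells (4 lower, 1 higher on the deposited values) became 3 with the median of probe sets, 3 with no filter, 2 with genes of 1 probe set allowed, 9 with median-gene centring, 9 with cyclic loess, 1 with each gene's own spread, 3 with only the groups compared, 1 with a fold of 1.5 required, 8 without both arrays of sample 5 and 3 when centred within stretches. Cytosolic calls there became 8 with own spread and 9 with the fold. With the fold, mitochondrial calls were 3 in uninduced cells and 3 in the average, where own spread also gave 3; equalising gave 10 and 10, with own spread 10 and without sample 5 11 in the average. The count of 4 for the difference between states became 0 under the median of probe sets, median-gene centring, cyclic loess, own spread, the fold, without sample 5, centring and every form of equalising, and 1 with an upper-quartile filter on probe sets or 1 probe set allowed. For induction with Xrn1, 1 member rose with only the groups compared. The cytosolic less mitochondrial median in uninduced cells moved to −1.21 with no filter, −1.59 with that filter, −0.75 with loess, −1.16 equalised and −1.09 equalised without sample 5; in induced cells to −0.31 with loess; in the average to −1.42 with the median of probe sets, −0.92 with no filter, −1.55 with that filter and −0.68 with loess. For the difference between states it became 0.44 with the median of probe sets and 0.0345 equalised without sample 5, and turned to −0.0370 with loess. For induction without Xrn1 it turned to 0.0254 with loess and 0.0524 equalised without sample 5, and with Xrn1 to −0.0293 in the latter. QARS turned to 0.16 in uninduced cells with loess, where it did not pass. The causes were not tested.

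With the replicate block the calls were 16 cytosolic and 5 mitochondrial in uninduced cells, 14 and 1 in induced cells and 16 and 4 in the average, and 0 for induction and for the difference between states. The block thus took the mitochondrial calls in induced cells from 5 to 1 and those for the difference between states from 4 to 0. With equalising and the replicate block together the calls were 17 and 8, 15 and 3, and 17 and 10, and again 0 for induction and for the difference. The titles give an untreated and an Xrn1 array a common sample number without saying what it marks. The deviations of such arrays from their group means correlated at −0.71 to 0.13 on deposited values, where the step gives some of them opposite offsets, and at −0.44 to 0.0954 on equalised values, where 1 of 6 untreated arrays correlated best with its own number. These correlations cannot show whether such arrays share an RNA preparation, since deviations from means of 3 arrays also hold array offsets. The main fit did not take the numbers as pairs, and the replicate block above is the alternative. The 3 arrays in each group limit the precision. Settings that use stretches, or leave out sample 5 after equalising, were chosen after seeing the data.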

Other observations

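Probe sets of single members spread widely in the averaged change under Xrn1. In HARS, 7 of 21 kept probe sets were lower by more than 1 while the highest stood at 3.30. In EARS2 the lowest stood at −3.49 and the median at −0.55 over 16 kept probe sets. In VARS2, AARS2 and SARS2 no probe set was lower by more than 1, of 43, 29 and 19.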
